A study of Homo sapiens with 6 samples.

Results

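KDR and TIE1, which encode a pair of receptor tyrosine kinases best known from blood vessel endothelium, were both lower in A375 melanoma cells that overexpress cytoglobin than in the wildtype line. They are 2 of the 2778 features in the deposited count table and were taken by gene symbol, 1 row each. RNA was measured in 6 libraries of A375, an established human melanoma line. The 3 CYGB-OE libraries came from untreated A375 cells labelled as overexpressing CYGB, the gene of the globin cytoglobin, and the table's columns call them hCYGB. The 3 WT libraries came from untreated A375 cells labelled wildtype. The sources used here do not say how CYGB was introduced or whether the overexpressing line is 1 clone or a pool, and the comparison has no empty-vector library. Nothing in the labels ties replicates to separate cultures, and a p-value then measures only how these libraries scatter, possibly for technical reasons.

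KDR, also called VEGFR2 or FLK1, is the main signalling receptor for VEGF-A on endothelial cells, where its kinase drives growth, migration and permeability. TIE1 is a receptor of the same kinase class that has no well-established high-affinity ligand of its own and works largely by pairing with TEK (Tie2), the receptor of the angiopoietins. Aggressive melanoma cells can express endothelial genes, these among them, and can line fluid-carrying channels without endothelial cells, a behaviour called vasculogenic mimicry. The study asked how gene expression differs between A375 cells that overexpress cytoglobin and wildtype cells.

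Both genes lie on autosomes and differ in promoter composition. KDR (ENSG00000128052) spans positions 55078259 to 55125595 on the minus strand of chromosome 4 in GRCh38, and TIE1 (ENSG00000066056) spans 43300993 to 43323108 on the plus strand of chromosome 1, both protein-coding in GENCODE release 29. The antisense gene AC111194.2 overlaps KDR on the opposite strand, and with the strand setting of the counting not given, reads from the overlap cannot be assigned between them; TIE1 has no overlapping annotated gene. The 250 bases just upstream of each RefSeq start (GRCh38.p14) are shown 5′ to 3′ on the gene's strand, because both genes were lower in CYGB-OE and the promoters let their sequence be compared. They are chr4:55125596-55125845 on the minus strand for KDR and chr1:43300732-43300981 on the plus strand for TIE1, and capitals mark the ETS core GGAA or TTCC and the GC box GGGCGG or CCGCCC.
KDR: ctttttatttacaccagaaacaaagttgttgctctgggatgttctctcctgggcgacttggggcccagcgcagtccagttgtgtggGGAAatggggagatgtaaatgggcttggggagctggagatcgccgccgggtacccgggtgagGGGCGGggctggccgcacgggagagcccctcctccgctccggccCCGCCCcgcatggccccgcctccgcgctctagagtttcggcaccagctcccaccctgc
TIE1: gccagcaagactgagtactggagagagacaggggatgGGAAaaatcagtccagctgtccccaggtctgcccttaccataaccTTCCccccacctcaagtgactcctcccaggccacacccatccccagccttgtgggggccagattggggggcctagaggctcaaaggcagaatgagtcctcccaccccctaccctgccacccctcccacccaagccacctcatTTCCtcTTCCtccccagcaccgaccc

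The KDR window holds 17 CpG dinucleotides and the TIE1 window 1, against a median of 11 over 35114 RefSeq promoter windows of the same length. Their GC contents are 65.2% and 61.6%, both above the median of 58.0%. The KDR window has 2 GC boxes, beginning 102 and 58 bases before the start, and the TIE1 window has 0; 42.6% of all windows hold at least 1. The ETS core occurs once in the KDR window, at 164 bases, and 4 times in the TIE1 window, at 213, 168, 26 and 20 bases; this short motif is in 92.7% of all windows. An E-box, CANNTG, occurs once upstream of KDR and 2 times upstream of TIE1, and in 61.8% of all windows. On either strand, neither window holds the GATA core GATA, the hypoxia response core ACGTG, the AP-1 motif TGANTCA or the TATA box TATAAA, which occur in 45.6%, 18.5%, 6.57% and 10.7% of all windows. None of the marked motifs overlap each other, and a match describes letters, not a bound site.

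The table is a selection. Among rows with counts in both groups, none had a ratio of mean CYGB-OE to mean WT level between -0.995 and 0.995 on the log2 scale. Such rows had thus been kept for differing by about 2-fold between these same libraries, KDR and TIE1 included, and the call of a row is not independent evidence that it differs. Column totals were 1533260 to 1897052 counts in CYGB-OE and 2025159 to 2801576 in WT. They sum the listed rows and are not library depths. Counts were divided by a factor per library (normalized counts) whose level between the groups was set by taking the middle of that empty range as 0. CYGB itself checked the labels, at normalized counts of 23160 to 24020 in CYGB-OE and 36.3 to 39.3 in WT. CYGB-OE replicate 1 stood apart from replicates 2 and 3, with median absolute differences of 0.455 and 0.461 on the scale of log2(normalized count + 1), against 0.211 between replicates 2 and 3 and 0.175 to 0.185 within WT.

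KDR was counted in every library and was low in all CYGB-OE libraries. It had 10, 8 and 12 raw counts in CYGB-OE replicates 1 to 3, against 115, 159 and 107 in WT replicates 1 to 3. The normalized counts were 10.7, 8.93 and 10.9 in CYGB-OE and 126, 126 and 114 in WT. The groups did not overlap, as in 98.3% of all rows. They lay far apart, and the libraries within each group were close to each other. KDR averaged 10.2 ± 1.08 normalized counts in CYGB-OE and 122 ± 7.14 in WT (SD, n = 3 each), which is 12.0-fold lower in CYGB-OE. On the log2 scale the fold change was -3.56 with an SE of 0.23, at an adjusted p = 5.24e-06 by the quasi-likelihood test of edgeR. In the same test 99.8% of the 2468 features tested passed the threshold of 0.05, 70.9% of the features tested being lower and 28.9% higher in CYGB-OE, so passing is the rule in this table. Of the 1749 features called lower, 87 had a more negative log2 fold change than KDR. The small counts limit precision: the exact 95% Poisson interval of the 8 counts in CYGB-OE replicate 2 runs from 3.45 to 15.8 counts, and that of the 107 counts in WT replicate 3 from 87.7 to 129. These intervals cover counting error only.

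TIE1 was also low in all CYGB-OE libraries, with a smaller fold and more spread. Its raw counts were 22, 7 and 12 in CYGB-OE replicates 1 to 3, against 59, 74 and 49 in WT replicates 1 to 3. The normalized counts were 23.5, 7.82 and 10.9 in CYGB-OE and 64.9, 58.5 and 52.1 in WT. The groups did not overlap, as in 98.3% of all rows, and CYGB-OE replicate 1, the library that stood apart, was the highest of its group. TIE1 averaged 14.1 ± 8.29 normalized counts in CYGB-OE and 58.5 ± 6.40 in WT (SD, n = 3 each), or 4.16-fold lower in CYGB-OE. Its log2 fold change of -2.05 had an SE of 0.38 and an adjusted p = 0.000843 from edgeR, and 470 of the 1749 lower features had a more negative one. Without CYGB-OE replicate 1 the TIE1 value was -2.61 and stayed called, in a fit where 98.9% of features were called, 70.8% lower and 28.1% higher. When TMM or DESeq2 size factors were computed over all rows, which move the median log2 fold change of all features up by 1.20, TIE1 stood at -0.86 and -0.84 and was no longer called (edgeR adjusted p = 0.10 and 0.11), whereas KDR stood at -2.37 and -2.36 and stayed called (edgeR adjusted p = 3.92e-05 and 4.32e-05). With TMM over all rows 48.4% of features were called, 19.4% lower and 28.9% higher. In RNA of whole cultures, fewer cells with a transcript and less of it per cell cannot be told apart.

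**Figure D1:**
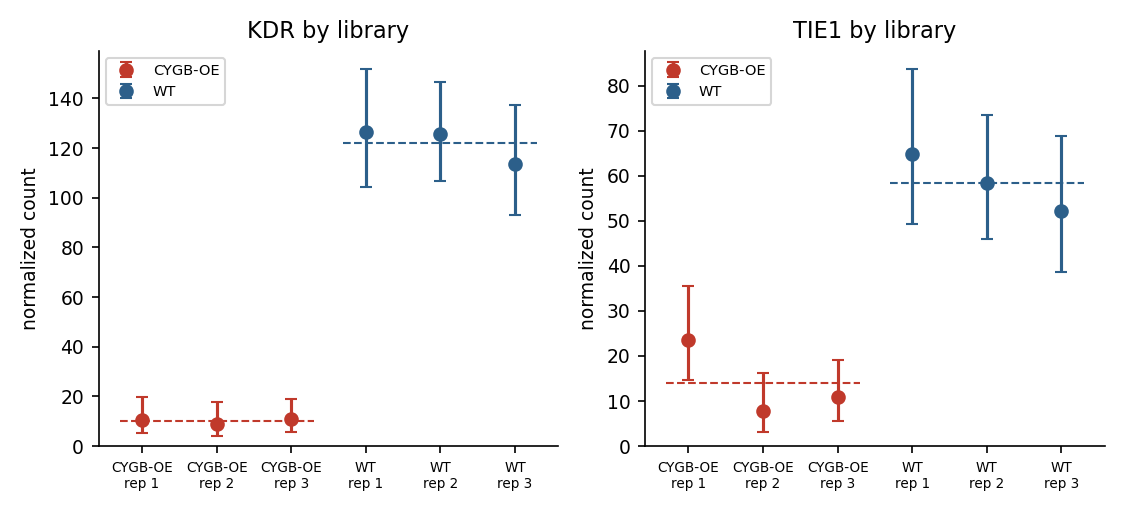
Normalized counts of KDR (left) and TIE1 (right) in each CYGB-OE and WT library; points are libraries, bars are exact 95% Poisson intervals of the count divided by the library's factor, and dashed lines are group means. KDR lies between 8.93 and 10.9 in CYGB-OE and between 114 and 126 in WT, and TIE1 is highest within CYGB-OE in replicate 1, at 23.5.

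Per kilobase of annotated exon KDR stood above TIE1 in all WT libraries and close to it in CYGB-OE. With exon unions of 6563 bases for KDR and 6694 bases for TIE1, the mean level per kilobase in CYGB-OE was 1.55 normalized counts for KDR and 2.10 for TIE1. In WT it was 18.6 for KDR and 8.74 for TIE1. In CYGB-OE the libraries of the 2 genes overlapped, at 1.36 to 1.66 for KDR and 1.17 to 3.51 for TIE1, so they did not differ beyond their spread. In CYGB-OE replicates 2 and 3 they were nearly level, with 8 and 12 raw counts for KDR and 7 and 12 for TIE1. TIE1 was the higher in CYGB-OE replicate 1, the library that stood apart. In WT they did not overlap, at 17.3 to 19.3 for KDR and 7.78 to 9.69 for TIE1. Both genes were modestly expressed among the listed rows: mean normalized counts of KDR exceeded those of 21.8% of the table in CYGB-OE and 59.3% in WT, and those of TIE1 27.1% in CYGB-OE and 45.4% in WT.

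The ratio of KDR to TIE1 within a library does not depend on scaling between libraries. It was 0.455, 1.14 and 1 in CYGB-OE replicates 1 to 3 and 1.95, 2.15 and 2.18 in WT replicates 1 to 3. Every CYGB-OE library lay below every WT library, and CYGB-OE replicate 1 was the lowest. The mean log2 ratio, with 0.5 added to each count, was -0.31 ± 0.69 in CYGB-OE and 1.06 ± 0.088 in WT (SD, n = 3 each), a difference of -1.36. A two-sided exact permutation test gave p = 0.1, the smallest that this test can give with 3 against 3 libraries. Without CYGB-OE replicate 1 the difference was -0.97. The fits of KDR and TIE1, at log2 fold changes of -3.56 and -2.05, use the same counts, so their order is not separate support.

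**Figure D2:**
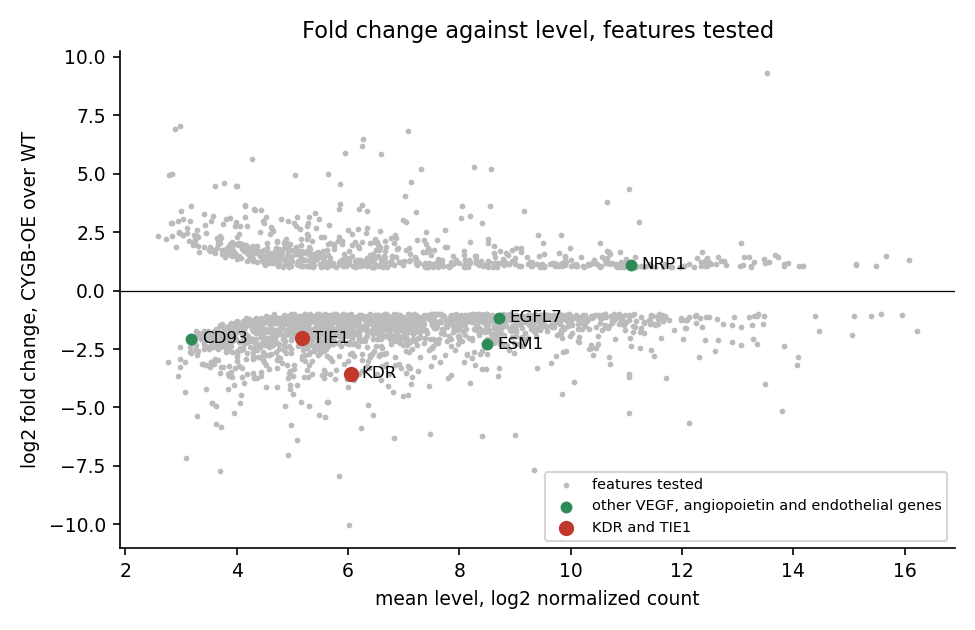
Log2 fold change of CYGB-OE over WT (vertical) against the mean level as log2 normalized count (horizontal) for the 2468 features tested; red points are KDR and TIE1, green points the other tested genes of the VEGF and angiopoietin list and of the endothelial marker list. The empty strip around 0 is the selection of the table, and KDR at -3.56 lies lower than TIE1 at -2.05, with NRP1 above 0 at 1.10.

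Of 18 listed symbols of VEGF and angiopoietin ligands and receptors, with VEGFD also listed as FIGF, 3 had a row. The other 15, the ligand VEGFA and the TIE1 partner TEK among them, were not analysed here. KDR and TIE1 were lower and NRP1 was higher in CYGB-OE, a split that all 4 other scalings kept in sign. NRP1 encodes neuropilin 1, a co-receptor that binds VEGF-A and semaphorins and can join KDR in a complex. Its normalized counts were 3876, 2469 and 2579 in CYGB-OE and 1271, 1468 and 1408 in WT. All CYGB-OE libraries lay above all WT libraries, in a table where the groups did not overlap in 98.3% of rows. NRP1 was 1.10 higher in CYGB-OE on the log2 scale (SE 0.18, adjusted p = 0.000354 by edgeR).

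Of 51 endothelial markers, 7 had a row, 5 were tested and all 5 were called lower in CYGB-OE, beside 70.9% of all features tested. KDR and TIE1 are 2 of these 5, so the count and the median partly restate them. The median log2 fold change was -2.08, beside -1.29 over all features tested. With TMM over all rows, 2 were called lower, KDR and ESM1, beside 19.4% of all features. In that fit 4 of 5 lay below 0, EGFL7 having moved to 0.036. The ESM1 call with TMM was borderline (edgeR adjusted p = 0.04948) and was lost with DESeq2 size factors over all rows. The count of 2 thus rests on KDR itself and a borderline call. ESM1, a secreted proteoglycan of activated endothelium that VEGF induces, had 209, 82.6 and 74.5 normalized counts in CYGB-OE and 530, 654 and 621 in WT. Its log2 fold change was -2.30, and -2.94 without CYGB-OE replicate 1, in which it was highest. CD93, a lectin-like receptor, and EGFL7, a secreted regulator of vessel tubes, had log2 fold changes of -2.08 and -1.16. The CD93 value rests on raw counts of 2, 4 and 4 in CYGB-OE and 12, 18 and 16 in WT. Its call was lost with TMM over all rows, at -0.90 (edgeR adjusted p = 0.102). A pair of markers fell under the filter on low counts. SELE, the adhesion molecule E-selectin, had 0 counts in each CYGB-OE library and 9, 9 and 7 in WT, at least 7.85-fold lower against a floor of 3 counts over the group. PCDH12, an endothelial protocadherin, had 14, 14 and 9 counts in CYGB-OE and 5, 3 and 2 in WT. The defining endothelial genes PECAM1, CDH5 and VWF were among the 44 markers not analysed here, so the endothelial label of the 2 receptors rests on what they are known for and not on a full marker profile of these cells. Summed over the 7 rows, the markers reached 403.5 to 455.5 normalized counts in CYGB-OE and 1355 to 1412 in WT. EGFL7 and ESM1 made up most of these sums, with means of 258.8 and 122.1 in CYGB-OE and 580.2 and 601.5 in WT.

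Of 41 gene symbols linked to vasculogenic mimicry, with CTGF and CYR61 also listed under other names, 10 had a row and were tested. Of these, 8 were called lower and 2 higher, with a median log2 fold change of -1.49. Over all features tested, 70.9% were called lower and 28.9% higher, with a median of -1.29, so the list's count is near that of the table. KDR had the lowest value of the list. With TMM over all rows, 2 stayed called lower, KDR and IGFBP7, beside 19.4% of all features. Of the 8, 7 stayed below 0, EPAS1 having moved to 0.089. IGFBP7, a secreted binding protein expressed in vessels, had 248, 260 and 273 normalized counts in CYGB-OE and 1620, 1611 and 1597 in WT (log2 fold change -2.63). LAMA3 and LAMB3, chains of an epithelial laminin, stood at -1.42 and -1.61, and LAMB3 at -2.53 without CYGB-OE replicate 1. EPAS1, the hypoxia factor HIF-2 alpha, SNAI2, the transcription factor Slug, and EDNRB, an endothelin receptor, stood at -1.11, -1.48 and -1.50. The matricellular genes CTGF and CYR61 were the 2 called higher, at 1.20 and 1.02, with WT replicate 2 well above the other WT libraries. Without CYGB-OE replicate 1, 0 of the list were called higher and 8 lower. Without WT replicate 2, CTGF and CYR61 stood at 1.77 and 1.56 and stayed called (edgeR adjusted p = 0.000118 and 0.0002945). With TMM over all rows they stood at 2.39 and 2.22 and stayed called as well. The CTGF call was lost without CYGB-OE replicate 1 (edgeR adjusted p = 0.099). The CYR61 call was lost without CYGB-OE replicate 1, 2 or 3 or WT replicate 1 or 3 (edgeR adjusted p = 0.103, 0.0522, 0.0635, 0.0626 and 0.0574), and adjustment over all 58780 annotated genes ended both calls (edgeR adjusted p = 0.321 for CTGF and 0.595 for CYR61). It also ended those of LAMB3 and SNAI2 (edgeR adjusted p = 0.513 and 0.102), which left 6 called lower.

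Downstream of the receptors, 3 of 49 listed genes of VEGF receptor signalling had a row: ESM1 and SHC2 were lower and RCAN2 higher in CYGB-OE, and these signs held with TMM over all rows. SHC2 encodes an adaptor of the SHC family that couples tyrosine kinases to Ras. It had 10.7, 16.8 and 21.8 normalized counts in CYGB-OE and 282, 241 and 271 in WT, and its log2 fold change of -3.98 (SE 0.25, adjusted p = 4.60e-06 by edgeR) was near that of KDR. RCAN2, a regulator of calcineurin, had 21.3, 88.2 and 85.4 in CYGB-OE and 18.7, 7.11 and 13.8 in WT (log2 fold change 2.33; edgeR adjusted p = 0.00443, and 0.106 over all annotated genes). Of 52 listed symbols of secreted regulators of vessel growth, some of them other names of the same gene, 10 were tested. Of these, 8 were called lower and 2, again CTGF and CYR61, higher, beside 70.9% lower and 28.9% higher over all features. The regulators had a median of -1.36 on the log2 scale, beside -1.29 over all features. With TMM over all rows, 2 stayed called lower, beside 19.4% of all features. Of the 8, 7 stayed below 0, COL18A1 having moved to 0.056. The growth factors PDGFB and PDGFA stood at -2.68 and -1.41, angiogenin (ANG) at -2.58 and the peptide adrenomedullin (ADM) at -1.77. A pair known to restrain vessels was lower as well: THBS2, thrombospondin 2, stood at -1.43 (-2.02 without CYGB-OE replicate 1) and COL18A1, the source of endostatin, at -1.15. The THBS2 call was lost when adjusted over all annotated genes (edgeR adjusted p = 0.118), which left 7 of the list called lower.

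**Figure D3:**
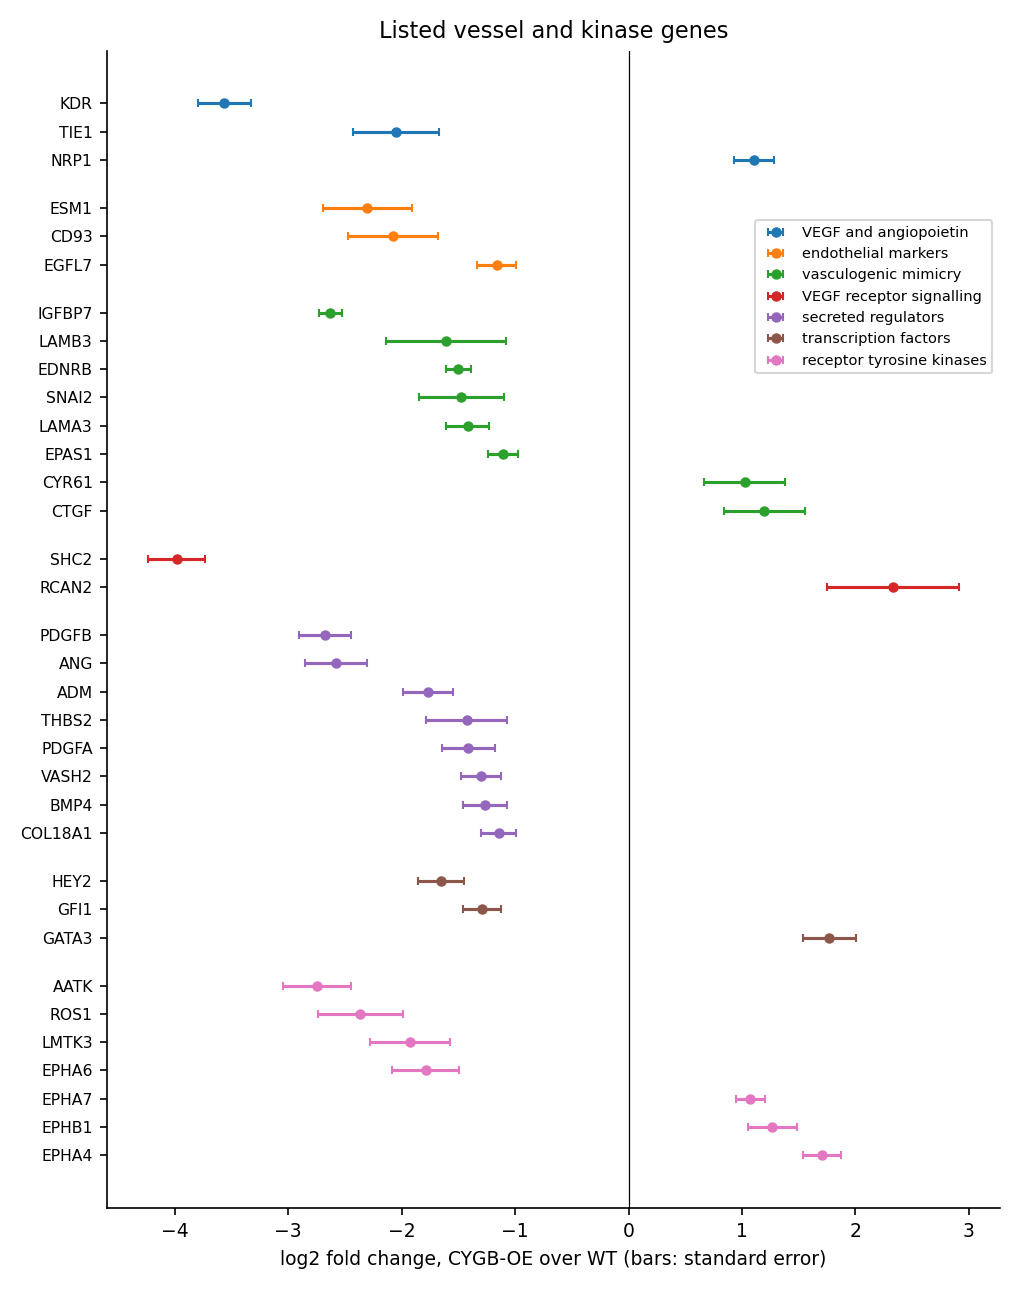
Log2 fold change of CYGB-OE over WT for tested genes of the vessel and kinase lists, chosen by mean level within each list; points are estimates, bars standard errors, colours the first list in which a gene appears. KDR at -3.56 and SHC2 at -3.98 are the lowest of the genes drawn, and NRP1 at 1.10 stands apart from KDR and TIE1 in its list.

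Among receptor tyrosine kinases as a family, 16 of 58 had a row and 14 were tested, of which 9 were called lower and 5 higher in CYGB-OE, a smaller share lower than the 70.9% of all features. The family's median log2 fold change was -1.88, beside -1.29 over all features. With TMM over all rows, 4 stayed called lower, beside 19.4% of all features, and all 9 stayed below 0. KDR had the lowest log2 fold change of the 14. TIE1, at -2.05, had 5 of the other lower kinases below it and 3 above it, in a range from -3.56 to -1.79. The other lower ones included AATK, an apoptosis-linked kinase, at -2.75, ROS1 at -2.37 (-2.95 without CYGB-OE replicate 1), LMTK3 at -1.93 and the ephrin receptor EPHA6 at -1.79. The ephrin receptors EPHA4, EPHB1 and EPHA7 were higher, at 1.70, 1.27 and 1.07. Among 44 transcription factors of the endothelial and blood lineages, 4 were tested. The Notch target HEY2, GFI1 and EPAS1 were lower, at -1.65, -1.29 and -1.11, and GATA3 was higher, at 1.77. This split is near the 70.9% lower and 28.9% higher over all features. The median of the 4 was -1.20, beside -1.29 over all features. With TMM over all rows, 0 of the 3 lower factors stayed called lower, beside 19.4% of all features, and EPAS1 lay above 0.

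Genes near the 2 receptors on the chromosome were looked up. Within 1 Mb of KDR the annotation places 40 other genes, 13 of them protein-coding, and 0 had a row. Within 1 Mb of TIE1 it places 88, of which 4 had a row. The nearest, AL139289.2, is an antisense gene 32 kb from TIE1, with 24.5, 27.9 and 14.5 normalized counts in CYGB-OE and 72.6, 91.7 and 92.5 in WT (log2 fold change -1.95, SE 0.29, adjusted p = 0.000245 by edgeR). That value is close to the -2.05 of TIE1, and it too lost its call with TMM over all rows, at -0.75 (edgeR adjusted p = 0.0627). CCDC30 and SLC2A1-AS1 stood at -1.22 and -1.76, whereas SLC2A1, the glucose transporter GLUT1, was higher at 1.02, so rows around TIE1 moved both ways.

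The genes whose profile over the 6 libraries was most like each receptor were found by the root mean square difference of log2(normalized count + 1), each relative to its WT mean, among 2323 other named features. For KDR they were GFRA1, a co-receptor of the GDNF family, at 0.136, DACH1, a nuclear cofactor, at 0.138, AC241585.3 at 0.203, ODF3B at 0.206 and AL160269.1 at 0.208. GFRA1 had 6.40, 6.70 and 6.36 normalized counts in CYGB-OE and 89.1, 90.9 and 86.1 in WT. For TIE1 they were the long non-coding RNA AL035541.1 at 0.144, LURAP1L at 0.157, the natural killer receptor gene KLRC2 at 0.185, whose close paralogs make its count uncertain, AC241377.3 at 0.187 and the kinase RIPK4 at 0.190. Like TIE1, each of those 5 was highest within CYGB-OE in replicate 1, which choosing them for likeness to TIE1 over all 6 libraries favours. RIPK4 had 650, 229 and 221 normalized counts in CYGB-OE, against 1497, 1517 and 1416 in WT. Without CYGB-OE replicate 1 the log2 fold changes of RIPK4 and AL035541.1 were -2.72 and -2.65, beside -2.01 and -1.97 with it. KDR and TIE1 differed from each other by 1.03 on this measure, and neither was among the 5 genes most like the other. The 10 genes were picked for the smallest differences, so being nearer than 1.03 follows from that choice. How 1.03 ranks among all the named features was not examined.

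**Figure D4:**
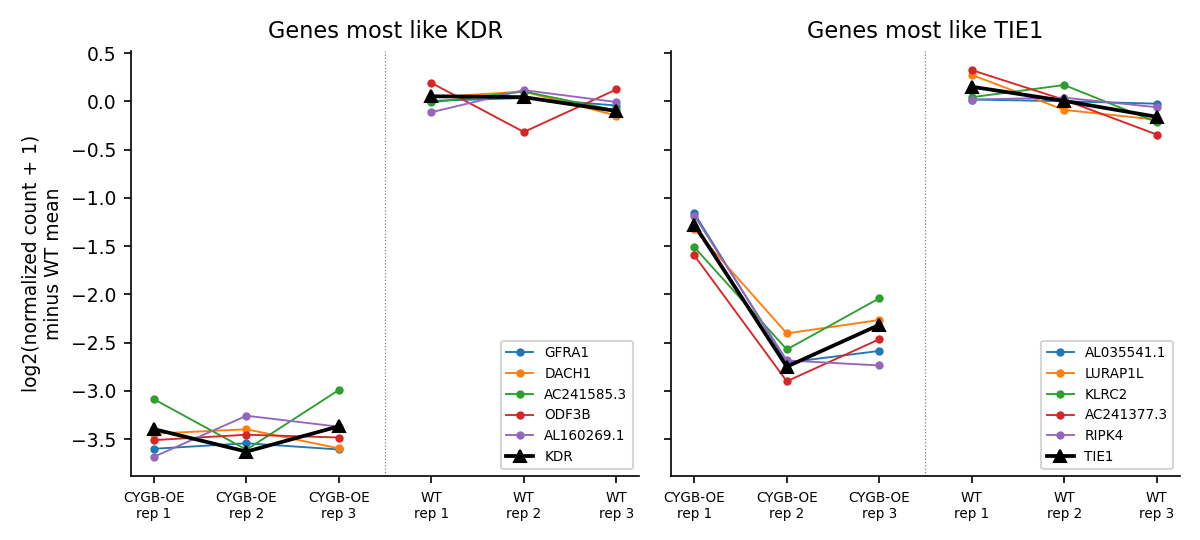
Profiles of KDR (left) and TIE1 (right), black triangles, with the 5 named genes most like each, over the CYGB-OE and WT libraries; the vertical axis is log2(normalized count + 1) minus the gene's WT mean. The KDR profile is nearly level within CYGB-OE, at 8.93 to 10.9 normalized counts, whereas that of TIE1 is highest in CYGB-OE replicate 1. So are those of its 5 genes, which were chosen for likeness to it over the same libraries.

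Markers of other cell types were read beside these values. Of the pericyte and smooth muscle list 5 of 12 genes had a row, summing to 14660 to 16220 normalized counts in CYGB-OE and 52460 to 57370 in WT, nearly all of it CSPG4, which melanoma cells also express (13870 to 15460 in CYGB-OE and 51330 to 56240 in WT). ACTA2, smooth muscle actin, was lower at -2.01, and the receptor NOTCH3 was higher at 1.20. The channel genes KCNJ8 and ABCC9, which were not tested, had 0 counts in CYGB-OE and few in WT. In WT KCNJ8 had 6, 5 and 4 raw counts and ABCC9 had 5, 5 and 3. Of the fibroblast list 3 of 12 had a row, and they went opposite ways. The collagen gene COL1A2 had 34, 139 and 190 counts in CYGB-OE and 0, 4 and 2 in WT (log2 fold change 5.90, and 6.65 without WT replicate 2), and COL3A1, which was not tested, had 2, 26 and 22 in CYGB-OE and 1, 1 and 0 in WT. FBLN1 was lower at -1.06 (0.14 with TMM over all rows) and carried the WT sum, the 3 together reaching 185.6 to 389.9 normalized counts in CYGB-OE and 368.8 to 381 in WT. Of the keratinocyte list 2 of 12 had a row, KRT14 higher at 1.88 and DSC3 lower at -1.13 (0.074 with TMM over all rows), summing to 210.8 to 359.5 in CYGB-OE and 447.6 to 503.8 in WT. Of the blood cell list 2 of 16 had a row, LYZ higher at 2.49 and ITGAX lower at -1.65, summing to 269.9 to 412.6 in CYGB-OE and 239.5 to 269.4 in WT. Of 20 melanocyte genes 5 had a row, summing to 14990 to 16370 in CYGB-OE and 54160 to 59080 in WT, again mostly CSPG4. The pigment enzyme gene DCT, which was not tested, had 0 counts in CYGB-OE and 2, 13 and 15 in WT. The other 15 melanocyte genes were not analysed here. The part of any of these in the fall of KDR and TIE1 was not tested.

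KDR kept its call under each of the 16 alternatives run, with log2 fold changes from -3.62 to -2.36, and those of TIE1 ran from -2.61 to -0.84. Adjusted over all 58780 annotated genes, with those outside the table counted as not significant, both stayed called (edgeR adjusted p = 0.000125 for KDR and 0.0201 for TIE1), as did 73.7% of the features tested, 54.3% lower and 19.4% higher.

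**Figure D5:**
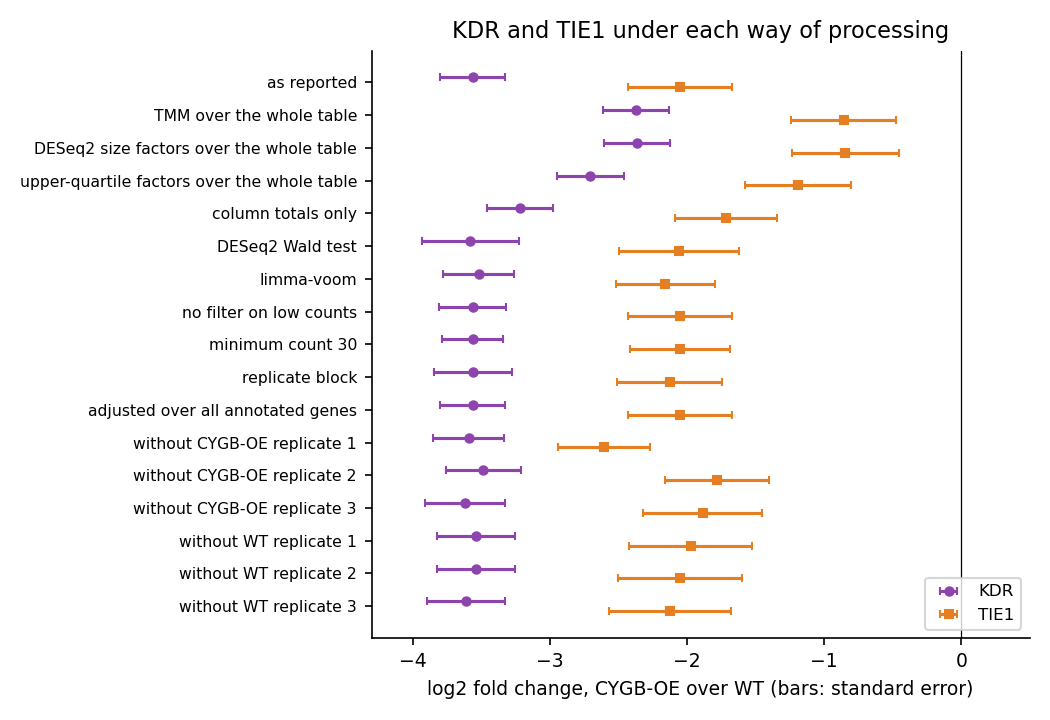
Log2 fold change of CYGB-OE over WT for KDR (circles) and TIE1 (squares) as reported and under each alternative; bars are standard errors. Scaling over the whole table moves both toward 0, and only TIE1, at -0.86 and -0.84, loses its call.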

How the data were processed

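The authors deposited 1 table of raw counts, with a column for each library, per the file headers. It was made on build GRCh38 with STAR 2.5.2b, Trimmomatic 0.36, Subread 1.5.2 and featureCounts, per the submitters' processing notes. The sources used here give neither annotation nor strand setting. Of 2615 Ensembl identifiers, 2611 matched GENCODE release 29. The test was edgeR 4.0.16 (R 4.3.3), quasi-likelihood F test, two-sided, filterByExpr with minimum count 10, group as the only term, and Benjamini-Hochberg adjustment over 2468 features at 0.05. TMM was applied within each group, and the middle of the empty band of log2 ratios (1.99 wide) was set to 0. This assumes a selection symmetric around no change, which no source states. Alternatives were other scalings, DESeq2 1.42.0, limma-voom (limma 3.58.1), other filters, a replicate term, a wider adjustment and leaving out each library. Fits were tested on simulated data. Both receptors, the gene lists, and the rule for named genes (list members, up to 10 by mean level, neighbours within 1 Mb, 5 most similar profiles) were chosen with earlier results of these data known. The value of 1 listed kinase is not reported here.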

Additional observations from a re-analysis of the deposited data

How the results depend on the processing

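The number of features called lower moved most with scaling, and the number called higher with the filter and the adjustment. Under TMM over the table, DESeq2 size factors and upper-quartile factors, the features called lower numbered 480, 476 and 910 in place of 1749, and those called higher 714 each in place of 713; the share of lower calls was 40.2%, 40% and 56.0% in place of 71.0%, and 70.6% with column totals only. TIE1 moved to -0.86 under TMM and -0.84 under DESeq2 size factors, past the threshold in neither. Under TMM and DESeq2 size factors 5 named genes changed sign: EGFL7 to 0.036 and 0.0404, EPAS1 to 0.089 and 0.096, COL18A1 to 0.056 and 0.066, FBLN1 to 0.14 and 0.14, and DSC3 to 0.074 and 0.085. Of the 58 other named genes, 29 lost their call with TMM, 30 with DESeq2 size factors, 12 with upper-quartile factors and 11 when adjusted over all annotated genes. Features called higher and lower numbered 479 and 1340 with the wider adjustment, 545 and 1395 at a minimum count of 30, and 809 and 1959 with no filter. The 3 scalings add a near-constant shift to every feature, with medians of 1.20, 1.20 and 0.86. Column totals, the DESeq2 Wald test, limma-voom and no filter on low counts changed none of the calls of KDR, TIE1 and the 58. Leaving out each library in turn gave -3.62 to -3.48 for KDR, -2.61 to -1.78 for TIE1, -1.61 to -0.97 for the difference in their log2 ratio, 708 to 751 features called higher and 1761 to 1840 lower. Replicate numbers did not pair the libraries: deviations of same-numbered libraries correlated at -0.0127, -0.0689 and -0.000475. The fit with the replicate block gave -3.56 for KDR, -2.13 for TIE1 and -1.36 for the log2 ratio, with 712 higher and 1750 lower, and changed no named call. The depth of the libraries is unknown, and counts of 7 to 22 in CYGB-OE limit both receptors.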
